A study of Homo sapiens with 6 samples.

Results

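The contacts of the TBXT promoter were compared between H460 and A549 cells, using every region that the authors listed for either line. H460 is a large cell lung carcinoma line established from a pleural effusion and expresses TBXT, whereas A549 is a lung adenocarcinoma line in which TBXT expression is not detected. Neither line was treated. H460 cells were grown in RPMI 1640 and A549 cells in DMEM, so the line and its medium cannot be told apart. Each line was profiled by 4C-seq with 2 replicate libraries, and the authors deposited 1 list per line that pools both replicates. A further TBXT-negative lung cancer line of the same study, H358, was not used to sort the regions. The deposited lists held 760 regions in H460 and 759 in A549, which together made 1029 different regions of the 1201 in the lists of all 3 lines. The running text of the study gives the sizes of the A549 and H358 lists the other way round, whereas its diagram of the overlaps gives them as the deposited lists do. The deposited labels were kept here, and every A549 and H358 value below rests on them. Regions were matched on identical start and end. By this rule, 490 regions were in both lists, 270 were in H460 without A549, and 269 were in A549 without H460. No read count, score or value per replicate was available, so library depth is unknown, no number below has a replicate error, and no difference between the lines could be tested.

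TBXT, also called Brachyury, is a T-box transcription factor. In the embryo it is needed for mesoderm and notochord formation. It is silent in most adult tissues and is expressed in some lung cancers, where it is linked to epithelial-to-mesenchymal transition. Promoters are folded onto distal DNA, and part of that DNA can hold enhancers or silencers. 4C-seq reads out this folding for 1 chosen site, the viewpoint: chromatin is crosslinked and cut with the enzyme NlaIII (site CATG), touching ends are ligated, a further digestion with DpnII (site GATC) and ligation make small circles, and inverse PCR from the viewpoint amplifies whatever was joined to it. A listed region is called here a pCRE, for putative cis-regulatory element, which is the study's name. The name states a contact and not an activity. The study counts listed regions as pCREs but also uses the name for longer merged stretches. For example, it treats chr6:166547780-166558507 as a single pCRE, whereas that stretch is counted here as 41.

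The viewpoint lies 1359 bp upstream of the start of the canonical TBXT transcript, which runs on the minus strand, so that TBXT and PDE10A lie on one side of it and PRR18, SFT2D1, MPC1 and RPS6KA2 on the other. The stretch that ends at the NlaIII site of the viewpoint is shown first, since each contact below is a contact with it. All sequences are from hg38, are written on the plus strand, and were read from the reference and not from the libraries. Capitals mark the NlaIII site.
Viewpoint, chr6:166168914-166169213: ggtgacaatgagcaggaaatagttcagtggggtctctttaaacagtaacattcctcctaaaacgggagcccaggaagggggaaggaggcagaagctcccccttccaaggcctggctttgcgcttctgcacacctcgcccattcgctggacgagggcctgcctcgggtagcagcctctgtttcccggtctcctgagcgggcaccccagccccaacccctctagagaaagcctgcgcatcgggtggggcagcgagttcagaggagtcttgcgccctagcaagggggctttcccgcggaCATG

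Of the 1029 pCREs, 1021 held exactly 1 NlaIII site, so a pCRE is an NlaIII site with its adjoining half-fragments. The unit is small and is set by where CATG occurs. The median length was 180 bp for pCREs in both lists, 192 bp for those in H460 alone, and 202 bp for those in A549 alone. The following sequences show the ends of the lists. They are the pCRE of either line nearest to the viewpoint, 6.79 kb away toward RPS6KA2 and called in H460 without A549, the farthest pCRE of H460, 463 kb away within RPS6KA2, and the farthest of A549, 454 kb away on the opposite side within PDE10A. Capitals again mark the NlaIII site.
H460 without A549, nearest, chr6:166175849-166176143: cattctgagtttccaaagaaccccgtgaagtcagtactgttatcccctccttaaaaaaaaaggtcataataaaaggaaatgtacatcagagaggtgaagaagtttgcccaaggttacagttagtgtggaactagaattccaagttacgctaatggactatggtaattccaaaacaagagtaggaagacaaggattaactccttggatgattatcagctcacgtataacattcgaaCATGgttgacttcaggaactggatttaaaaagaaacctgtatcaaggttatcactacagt
H460 without A549, farthest, chr6:166632157-166632221: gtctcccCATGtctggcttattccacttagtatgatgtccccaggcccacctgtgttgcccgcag
A549 without H460, farthest, chr6:165715611-165715646: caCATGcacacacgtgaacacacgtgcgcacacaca

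The pCREs in both lists made up 47.6% of the 1029 in either list (95% Wilson interval 44.6 to 50.7). Those in H460 without A549 made up 26.2% (23.6 to 29.0) and those in A549 without H460 made up 26.1% (23.5 to 28.9). These intervals cover counting only. Adjacent pCREs are not independent, because the authors averaged the signal over 30 neighboring fragments. By the size of each list, 64.5% of the H460 pCREs were also listed in A549, and 64.6% of the A549 pCREs were also listed in H460. The pCREs in both lists covered 112886 bp, those in H460 alone 62946 bp and those in A549 alone 63982 bp. Of the 9874 NlaIII sites within 1 Mb of the viewpoint, 7.70% were called in H460 and 7.69% in A549. Both lines therefore had nearly the same number of calls, and what differed was where the calls lay. The authors' calls include a criterion on the upper quartile of a score within each line, which bears on how many fragments can pass, so the near-equal totals are not read as a result.

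The third list gave a further description of the classes that the sorting did not use. Among pCREs in both H460 and A549, 400 of 490 (81.6%) were also listed in H358. Among those in H460 without A549, 102 of 270 (37.8%) were listed in H358, and among those in A549 without H460, 55 of 269 (20.4%). Of the differing pCREs, those of A549 were thus listed in H358 at a lower share than those of H460, although both A549 and H358 lack TBXT expression. H358 cells shared their culture medium with H460 and not with A549, and the part of the medium was not tested. If the A549 and H358 lists were exchanged, these contrasts would not stand as written.

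The differing pCREs lay on different sides of the viewpoint. The side toward RPS6KA2 held 326 of the 490 pCREs in both lists (66.5%, 95% Wilson interval 62.2 to 70.6) and 171 of the 270 in H460 without A549 (63.3%, 57.4 to 68.9). It held 99 of the 269 in A549 without H460 (36.8%, 31.3 to 42.7), so that most of the A549 class lay toward PDE10A. The NlaIII sites themselves were spread evenly, with 4863 on the PDE10A side and 5010 on the RPS6KA2 side. On the PDE10A side, 5.41% of the sites were called in H460 and 6.87% in A549. On the RPS6KA2 side, 9.92% were called in H460 and 8.48% in A549. The contrast between the differing classes depended on the unit. When a run of adjacent pCREs of 1 class was counted once, the share on the RPS6KA2 side was 55.6% for the 45 runs of H460 without A549 and 52.5% for the 59 runs of A549 without H460. The difference in side between the classes was thus one of how many pCREs the runs held and was nearly gone in the number of runs.

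The classes also differed in distance. The pCREs in both lists had a median distance of 100 kb to the viewpoint, compared with 136 kb for those in H460 without A549 and 294 kb for those in A549 without H460. Within 200 kb lay 327 of the 490 in both lists (66.7%), 181 of the 270 in H460 alone (67.0%) and 77 of the 269 in A549 alone (28.6%). With each run counted once, the median of the A549 class was 235 kb, still farther than that of the H460 class.

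By side, the pattern of distances was not the same. Toward PDE10A, the median distance was 117 kb for H460 without A549 and 324 kb for A549 without H460, and 80.8% of the former and 17.1% of the latter lay within 200 kb. Toward RPS6KA2, the medians were 166 kb and 219 kb, and 59.1% and 48.5% lay within 200 kb. The H460 class reached farther than the A549 class on the RPS6KA2 side, to 463 kb against 330 kb. On the PDE10A side the order of the reach was turned, at 361 kb for the H460 class and 454 kb for the A549 class. The authors required a fitted signal above a set fraction of its value at the viewpoint. This bears on how far out a call can lie, so the reach is that of the calls and not of all contacts.

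**Figure D1:**
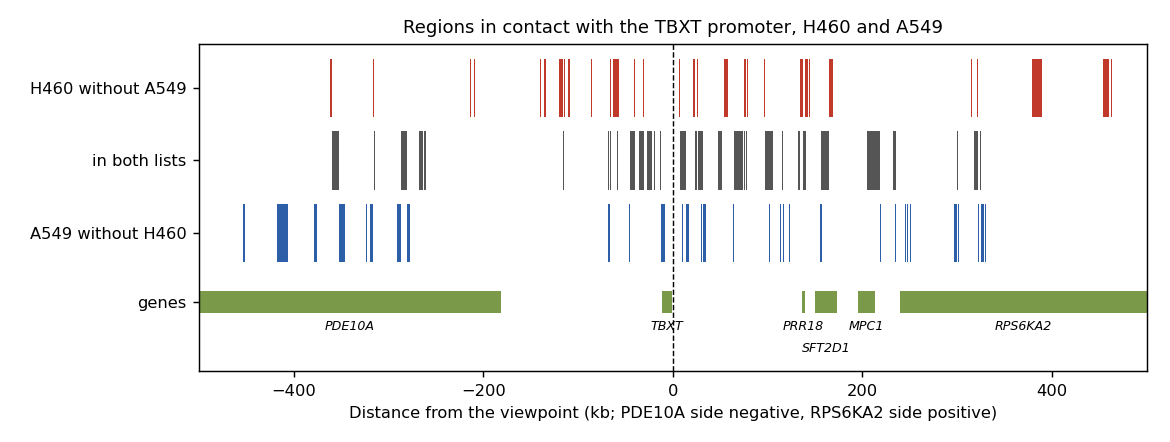
Each tick is a pCRE, placed by its distance in kb from the viewpoint (dashed line), in A549 without H460, in both lists, and in H460 without A549. Green bars are genes. The pCREs of A549 without H460 gather over PDE10A, and the long blocks of H460 without A549 lie in the PDE10A to TBXT gap, in SFT2D1 and in RPS6KA2, up to 463 kb.

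**Figure D2:**
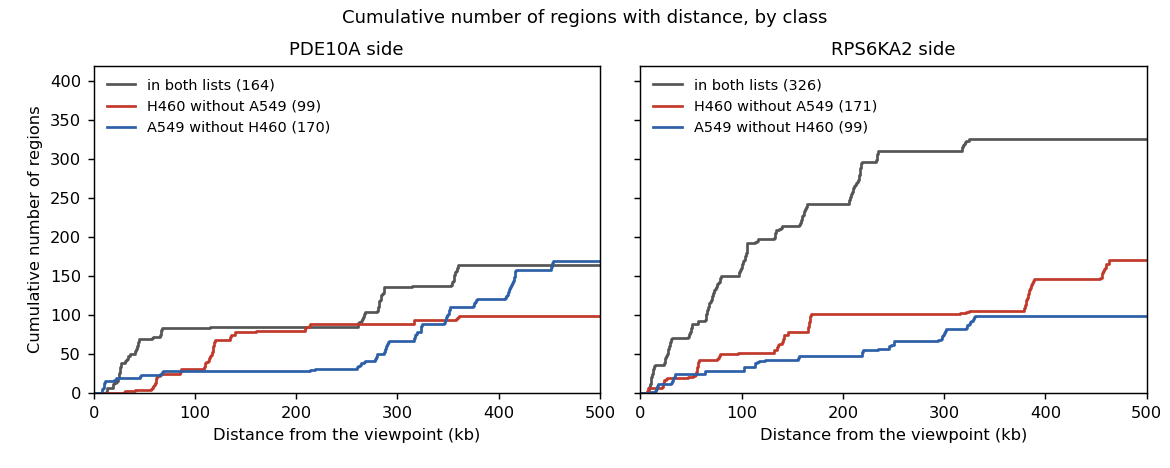
Cumulative number of pCREs (vertical axis) with distance from the viewpoint in kb (horizontal axis) on either side, 1 line per class, with the number in each class in the key. Toward PDE10A, the H460 class gained most of its 99 pCREs within 200 kb, whereas the A549 class gained most of its 170 beyond 200 kb.

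In windows of 50 kb, classes took turns along the chromosome. From 100 to 150 kb toward PDE10A, 48 pCREs were in H460 without A549, 2 were in both lists and none was in A549 alone. This corresponded to 21.9% of the 228 NlaIII sites there in H460 and 0.877% in A549. From 400 to 450 kb toward PDE10A, 37 pCREs were in A549 and none in H460, and from 450 to 500 kb there were 12 and none. Toward RPS6KA2, the windows at 350 to 400 kb and 450 to 500 kb held 41 and 25 pCREs of H460 and none of A549. Windows close to the viewpoint were mainly shared: from 0 to 50 kb toward RPS6KA2, 82 pCREs were in both lists, 21 in H460 alone and 25 in A549 alone. A window with many shared pCREs could also lack the H460 class. From 200 to 250 kb toward RPS6KA2, 68 pCREs were in both lists, 14 in A549 alone and none in H460 alone. A site that is not listed did not meet the authors' criteria in both replicates, which is not the same as no contact.

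**Figure D3:**
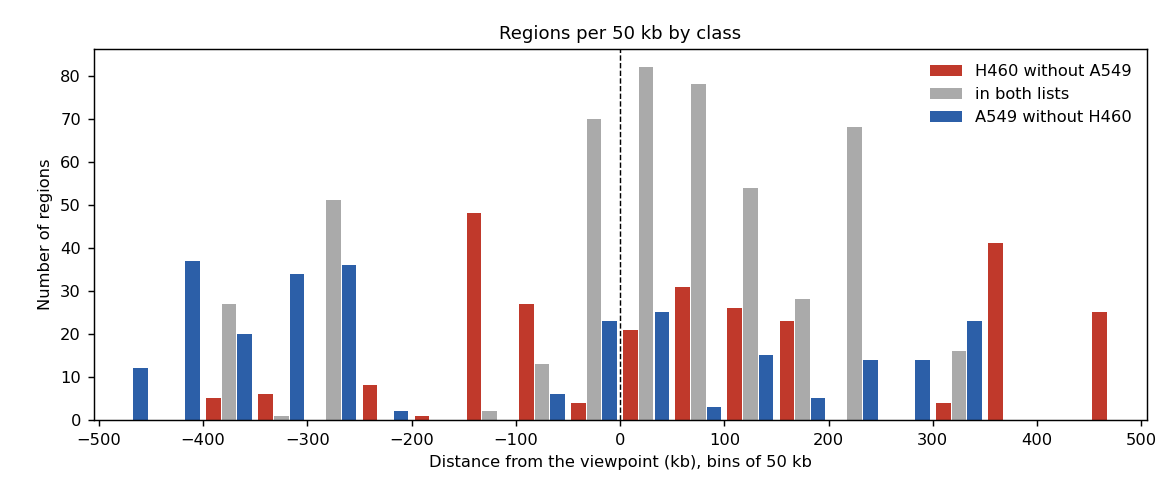
Number of pCREs (vertical axis) in 50 kb windows of distance from the viewpoint (horizontal axis, kb, PDE10A side negative), with bars for H460 without A549, both lists, and A549 without H460. The tallest H460 bar is the 48 pCREs from 100 to 150 kb toward PDE10A, and the tallest A549 bar is the 37 from 400 to 450 kb on the same side.

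TBXT itself held pCREs in A549 and none in H460. The gene has 32 NlaIII sites, of which 11 lie within 5 kb of the viewpoint, where the authors removed all fragments. Of the other 21 sites, 14 were called in A549, 3 in H358 and 0 in H460. The A549 pCREs formed 1 unbroken run of 15, at chr6:166157209-166161012, 8.20 to 12.0 kb from the viewpoint. The run spanned exon 8, the last exon of the canonical transcript, and exon 7. It began where a stretch in both lists ended, at position 166157208, and carried that stretch on toward the promoter in A549 but not in H460. The 4 pCREs of the run farthest from the promoter were also listed in H358, and the 11 nearest were not. On this side, the nearest pCRE to the viewpoint lay 12.2 kb away in H460 and 8.23 kb away in A549. On the RPS6KA2 side the order was the opposite, at 6.79 kb in H460 and 8.01 kb in A549.

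The 4 pCREs of A549 at exon 7 are printed below because they were the closest to the viewpoint on this side and touch TBXT coding sequence. Capitals mark the exon. TBXT is read from the opposite strand.
A549 without H460, TBXT exon 7, chr6:166160773-166161012: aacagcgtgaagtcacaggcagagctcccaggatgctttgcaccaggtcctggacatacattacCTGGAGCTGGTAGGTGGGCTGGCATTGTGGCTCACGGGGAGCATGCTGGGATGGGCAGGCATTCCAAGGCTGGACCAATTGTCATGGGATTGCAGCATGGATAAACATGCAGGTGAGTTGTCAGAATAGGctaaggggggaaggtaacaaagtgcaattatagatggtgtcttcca

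**Figure D4:**
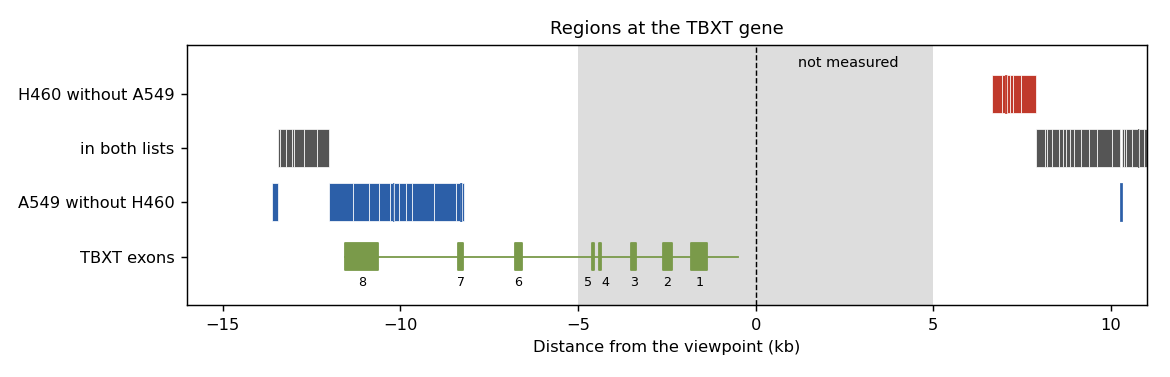
pCREs around TBXT by distance from the viewpoint in kb, in the 3 classes, above the numbered exons of the canonical transcript. The gray band marks the 5 kb either side where the authors removed fragments, and the blue run of A549 without H460 spans exons 8 and 7 from 12.0 to 8.20 kb.

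PDE10A, which encodes a phosphodiesterase that breaks down cyclic nucleotides, held the most pCREs of A549 without H460. There were 141 of them, beside 79 in both lists and 19 in H460 without A549. Of the 3188 NlaIII sites in the gene, 3.07% were called in H460 and 6.90% in A549. Of the 239 pCREs of either line in PDE10A, 59.0% were in A549 alone, against 26.1% over the whole comparison. None of these pCREs lay within the canonical PDE10A transcript. They fell in longer transcripts that start nearer to TBXT, and by midpoint 132 of the 141 of A549 alone were intronic, 9 were in noncoding exons and 0 in coding exons. The A549 class lay from 214 to 454 kb from the viewpoint with a median of 349 kb, and the shared class from 261 to 360 kb with a median of 284 kb. The 3 longest runs of the A549 class were all in PDE10A. They held 22 pCREs at chr6:165816607-165823580, 20 at chr6:165751987-165756311 and 17 at chr6:165877784-165882203, and none of these was listed in H358. In the gene as a whole, 10 of the 141 were in H358. The run of 20 overlapped the lncRNA gene ENSG00000236627, which lies within PDE10A and held 23 pCREs of A549 and none of H460. No pCRE of either line fell in a gene annotated as LINC00473 or LINC00602. Whether the annotation used these names was not checked.

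A run could begin at the very next NlaIII site after a shared stretch. The run of 17 and the adjoining shared stretch met at chr6:165882203, and the pair of pCREs on either side of that border is shown to give the scale. Capitals mark the NlaIII sites, which are a few bases apart and lie in different classes. The authors removed fragments under 40 bp and averaged the signal over 30 fragments, so a border between classes is not resolved to a few bases.
A549 without H460, chr6:165882179-165882203: aagagtaacccttgattctCATGgt
In both lists, chr6:165882204-165882214: cgCATGaccca

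The gap between PDE10A and TBXT showed the opposite pattern. Here 80 pCREs were in H460 without A549, 15 in A549 without H460 and 85 in both lists. Of its 813 NlaIII sites, 20.3% were called in H460 and 12.3% in A549. The H460 class made up 44.4% of the 180 pCREs of either line in the gap, against 26.2% over the whole comparison, and the A549 class 8.33%. The shared pCREs of the gap lay close to TBXT, with a median distance of 32.2 kb, and those of H460 alone farther out, with a median of 112 kb. The longest run of a differing class there held 21 pCREs of H460 at chr6:166048752-166053514, 116 to 120 kb from the viewpoint. No call of A549 lay within 40 bp of it, although 2 pCREs in both lists began within 1 kb of its end on the TBXT side. It overlapped no annotated gene, and 2 of its 21 pCREs were listed in H358. Of all 80, 19 were in H358. Nearer to TBXT, the lncRNA gene ENSG00000231297 held 20 pCREs of H460 alone, 6 of A549 alone and 13 in both lists. The pseudogene GAPDHP72 held 8 of H460 alone.

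On the other side, the stretch from TBXT to PRR18 was the most shared by number, with 209 pCREs in both lists, 61 in H460 without A549 and 43 in A549 without H460. H460 was called at 39.1% of its 691 NlaIII sites and A549 at 36.5%. The lncRNA gene ENSG00000233365 lies in this stretch and held 37 pCREs in both lists, 7 in H460 alone and none in A549 alone. Of the 61 of H460 alone, 42 were in H358, as were 7 of the 43 of A549 alone. The run of 16 H460 pCREs at chr6:166223238-166226021, which adjoined a shared stretch, was listed in H358 in full.

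PRR18 encodes a proline-rich protein and SFT2D1 a membrane protein thought to act in vesicle transport. From PRR18 to the end of SFT2D1, more sites were called in H460 than in A549. All 5 NlaIII sites of PRR18 were called in H460 and 3 of them in A549. Between PRR18 and SFT2D1, 15 pCREs were in H460 alone, 2 in both lists and none in A549 alone, and the 15 were also all in H358. Within SFT2D1, 28 were in both lists, 23 in H460 alone and 5 in A549 alone. The 23 formed a single run at chr6:166334083-166337676, the next longest of the H460 class after that in RPS6KA2. It prolonged the shared stretch of 28 away from the viewpoint, from 165 to 168 kb, and covered the pseudogene HNRNPA1P49. Since 20 of its 23 pCREs were listed in H358, the run was in both of the other lines and missing in A549. The 5 pCREs of A549 alone lay on the opposite, near edge of the same stretch, at 156 to 157 kb.

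MPC1, which encodes a subunit of the mitochondrial pyruvate carrier, did not differ in its calls between the lines. Its 28 pCREs were in both lists, at 42.4% of its 66 NlaIII sites, and were all in H358 as well. They belonged to the longest shared run, which held 54 pCREs at chr6:166374557-166387889 and included the divergent lncRNA gene MPC1-DT. No pCRE of either line lay in the gap between SFT2D1 and MPC1, which holds 116 NlaIII sites. Between MPC1 and RPS6KA2, 40 pCREs were in both lists and 8 in A549 alone.

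RPS6KA2, which encodes a ribosomal S6 kinase downstream of MAPK signaling, differed more between the lines than PDE10A or SFT2D1 by the share of its pCREs that were not in both lists. It held 16 in both lists, 70 in H460 without A549 and 43 in A549 without H460. The H460 class made up 54.3% of the 129 and the A549 class 33.3%, and 12.4% were in both lists. The share in both lists was lower still for TBXT, at 0%, and for the gap between PRR18 and SFT2D1, at 11.8%. At the level of sites, 3.42% of the 2516 in RPS6KA2 were called in H460 and 2.34% in A549. The A549 class lay at 245 to 330 kb, toward the gene's 3′ end, and the H460 class at 315 to 463 kb. Of the 70 of H460, 2 were in H358, and of the 43 of A549, 18 were. The longest run of either differing class lay here, with 41 pCREs of H460 at chr6:166547780-166558507 in an intron, apart from A549 calls and with none in H358. Leaving out this 1 run lowered the share of the H460 class on the RPS6KA2 side from 63.3 to 56.8% and its median distance from 136 to 119 kb. RPS6KA2-IT1, an RNA gene within an RPS6KA2 intron, held 1 pCRE, in A549. RAMACL held none.

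**Figure D5:**
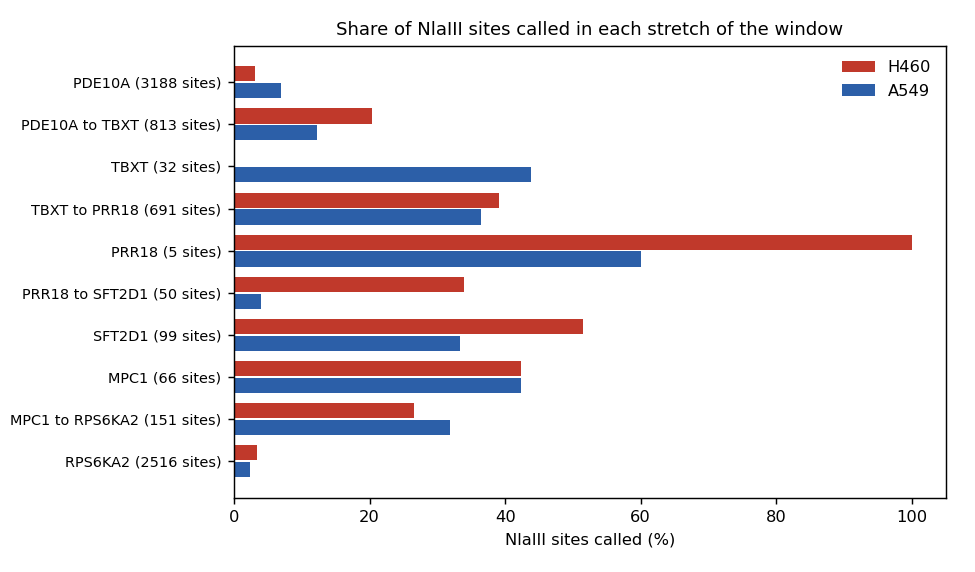
Share of NlaIII sites called in H460 and A549 (horizontal axis, percent) in each gene or gap between genes, with the number of sites beside the name, in order along the chromosome. TBXT was called in A549 alone, the PDE10A to TBXT gap had more calls in H460 (20.3 against 12.3%), and MPC1 had the same share in both.

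At the start of RPS6KA2, a run of 17 H460 pCREs at chr6:166623089-166629224 lay across the promoter of the canonical transcript. None of them was in A549 or H358. The pCRE at chr6:166627074-166627476 spanned the canonical start at position 166627251. RPS6KA2 and PRR18 were the protein-coding genes with promoter pCREs in H460 that A549 lacked, although PRR18 also had 3 promoter pCREs in both lists. For this reason, the 220 bases upstream of the canonical RPS6KA2 start, all inside the pCRE that spans it, are printed. CpG dinucleotides are in capitals. The stretch held 24 of them and was 73.6% G and C.
H460 without A549, RPS6KA2 promoter, chr6:166627252-166627471: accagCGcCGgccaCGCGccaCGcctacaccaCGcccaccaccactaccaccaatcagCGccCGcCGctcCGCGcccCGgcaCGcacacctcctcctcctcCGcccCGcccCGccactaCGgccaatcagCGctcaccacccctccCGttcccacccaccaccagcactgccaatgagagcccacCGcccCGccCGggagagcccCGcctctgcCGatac

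Few pCREs of any class met a promoter, defined as the 1000 bp before and 100 bp after each annotated start. They were 26 of the 490 in both lists (5.31%), 8 of the 270 in H460 without A549 (2.96%) and 11 of the 269 in A549 without H460 (4.09%). This order of the shares depended on the definition. They were 2.86, 2.59 and 2.97% with 600 bp upstream only, and 3.06, 2.59 and 2.97% with canonical starts only, when the shared pCREs numbered 14 and 15. Of the 8 of H460, 4 were at the RPS6KA2 start and 4 at the divergent starts of PRR18 and the lncRNA gene ENSG00000287189, of which 3 lay between the starts and 1 spanned that of the lncRNA gene. The 11 of A549 were 7 at ENSG00000236627, 3 at a start inside SFT2D1 and 1 at RPS6KA2-IT1. Shared promoter pCREs included 11 at SFT2D1, none of them at its canonical start, 3 at PRR18, 3 at MPC1 and 4 at MPC1-DT. In coding sequence, the A549 class touched TBXT exons 7 and 8 and exon 8 of RPS6KA2, the latter with the 108 bp pCRE at chr6:166498618-166498725. The H460 class touched the first exon of RPS6KA2. By the midpoint of the pCRE, 70.3% of the A549 class, 39.3% of the H460 class and 29.6% of the shared class lay in introns of protein-coding genes. Outside all annotated genes lay 19.7, 40.4 and 57.3%.

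The differing pCREs were partly edges of shared contacts and partly stretches of their own. When pCREs of either line were joined up to 40 bp apart, there were 75 joined regions. Of these, 33 held calls of both lines, 17 of H460 alone and 25 of A549 alone. The 33 regions of both lines held 132 of the 270 differing pCREs of H460 and 140 of the 269 of A549. The other 138 and 129 stood apart from any call of the other line. The median gap from a differing pCRE to the nearest pCRE of the other line was 2354 bp for H460 and 2110 bp for A549. For 85 of the H460 class (31.5%) and 70 of the A549 class (26.0%) the gap was over 10 kb, and the largest was 133 kb for H460 and 92.3 kb for A549. The H460 class formed 45 runs, of which 9 were single pCREs and the longest held 41, and the A549 class formed 59 runs, of which 19 were single and the longest held 22. Both had a median of 3 pCREs per run.

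The classes were close to each other in base composition. The G and C content was 44.6% in the shared class, 43.2% in the H460 class and 44.9% in the A549 class, against 43.1% for regions built in the same way from all NlaIII sites within 1 Mb and 44.3% within 500 kb, the range that holds all pCREs of both lines. A DpnII site was present in 40.6, 40.4 and 35.3% of the pCREs and in 33.4% of all such regions within 1 Mb and 33.2% within 500 kb. Short motifs were searched on both strands, and a match is a string of letters and not a bound site. The T-box letters are TCACACCT, which TBXT family proteins recognize. They were found in 13 shared pCREs (2.65%), 5 of the H460 class (1.85%) and 2 of the A549 class (0.743%). Of all regions, 1.46% within 1 Mb and 1.52% within 500 kb held them. The flank of each match was read on the strand opposite to the one that carries TCACACCT. On that strand, the letters GCCAC followed 4 of the 5 matches of the H460 class. They followed 3 of the 13 shared matches, 0 of the 2 of the A549 class and 47 of the 148 within 1 Mb. Most matches of the H460 class thus had the same flank, and whether they lie in repeats was not tested. The AP-1 letters TGANTCA were found in 6.73, 4.44 and 5.95%, against 6.08 and 5.62%, so that the A549 class lay below the one and above the other. A CTCF core, AGGGGGC or AGGTGGC, was found in 5.71, 5.93 and 6.32%, against 5.12 and 5.22%. One of the 2 T-box matches of the A549 class lay in the TBXT gene, in the pCRE at chr6:166157872-166158332 over exon 8.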

How the data were processed

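The 4C-seq data comprised 2 libraries each of H460 and A549 cells. For each line the authors deposited 1 pooled list of regions, given as genomic positions (hg38, chromosome 6), with no count or score. The authors trimmed reads to 30 bp and aligned them with Bowtie 1.2.2 (per the submitters' processing notes) to NlaIII and DpnII fragments. They removed fragments under 40 bp or within 5 kb of the viewpoint. They then took a running mean over 30 fragments and kept fragments within 1 Mb that were called in both replicates. Each also had to pass limits on a fitted signal, set against its value at the viewpoint, and on signal to noise. Its local coverage score had to lie in the upper quartile. The study describes merging interacting fragments up to 40 bp apart, but the deposited lists hold adjoining regions as separate entries. Since the running mean ties neighbors together, a number of pCREs is not a number of independent contacts.

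Header lines were dropped and starts were set to count from 1. Distances run from region midpoints to the NlaIII site at position 166169210. Annotation was GENCODE 44. Runs and joined regions allow 40 bp between pCREs. The named genes were the listed genes of the window (TBXT, PDE10A, LINC00473, LINC00602, PRR18, SFT2D1, MPC1, RPS6KA2, RPS6KA2-IT1 and RAMACL) and others holding a pCRE, and the named regions were the 3 longest runs per differing class, the ends of the lists, and differing pCREs at promoters or in coding exons. Other runs, windows and genes were picked after their values were seen. Members and lists were chosen with earlier results of these data known. The alternatives were other matching rules, units, distances, gene bodies and promoters. The share of repeats was not computed, since the reference was not masked. Matching and joining were run on simulated lists made of unbroken blocks of sites, which did not cover classes that alternate. Python 3.11.15, numpy 2.4.6, scipy 1.17.1 and matplotlib 3.10.9 were used.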

Additional observations from a re-analysis of the deposited data

How the results depend on the processing

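No test was run, so the alternatives were compared by value. Of 53 values recomputed under another setting, 39 stayed close to the main one and 14 moved. Close meant inside a fixed fold range for counts, the 95% interval for shares and median distances, and the spread across pCREs for G and C content. The fold range is wide: 70 against 57 H460 pCREs in RPS6KA2 counted as close. Matching by any overlap or within 10 bp could hardly move a value, since nearly every pCRE holds a single NlaIII site. With pCREs of each line joined up to 40 bp apart and matched by any overlap, 42.9% of the joined regions were in both lines, 18 were in H460 alone and 26 in A549 alone. With each run counted once, the share on the RPS6KA2 side was 55.6% for H460 without A549 and 52.5% for A549 without H460, and the median distance of the latter was 235 kb. Without its longest run, the H460 class had 56.8% on the RPS6KA2 side and a median distance of 119 kb. The share of differing pCREs in joined regions that also held calls of the other line was 48.9% for H460 and 52.0% for A549, and 61.1% and 68.4% with joining up to 1000 bp. Shared pCREs at promoters numbered 14 with a promoter of 600 bp upstream only and 15 with canonical starts only. Within the canonical PDE10A transcript, both differing classes had 0 pCREs. No paired analysis was possible because the replicates of each line were pooled by the authors before deposition, and leaving out a replicate could not be run for the same reason. The depth of the libraries is unknown, and how near an unlisted site came to being called cannot be seen.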
